A study of Arabidopsis thaliana with 18 samples.

Results

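The genes described here are 42 of the 27444 nuclear protein-coding genes of Arabidopsis thaliana. They encode light-harvesting antenna proteins and subunits of both photosystems, but are not every nuclear gene that does. They were taken as a fixed list of locus codes: 6 LHCA genes, 15 LHCB genes, 12 PSA genes and 9 PSB genes. For each gene the H3K4me3 peak and the H3K27me3 peak covering most of its gene body, by at least 150 bp, were read from the deposited peak tables. All 42 genes had an H3K4me3 peak, each a different one, and 0 had an H3K27me3 peak.

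ChIP-seq was made on tissue enriched for apical meristems, from plants aged 5 weeks under short days of 8 h light (16 h dark) at 21 °C. The chr4 mutant (CHR4, also called PKR1, encodes a CHD-type chromatin remodeller) and the wild type each gave 3 biological replicates per antibody, against H3K27me3, H3K4me3 and H3, so 18 samples in 6 groups. The mutant's allele is not given in the sources used here. Each table held 1 value per peak for a treat pool and 1 for a control pool, each made of 3 replicates of 1 genotype. Which of the pools is the mutant is not stated, so differences are given as treat pool over control pool with no genotype attached. Because replicates were pooled, replicate spread and library depth are unknown, and no difference below has been tested against them. The CHR4 gene gave no check of the pools, since its H3K4me3 peak had 24676 in the treat pool and 25726 in the control pool.

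Photosystem II and photosystem I are the membrane complexes of the chloroplast that turn absorbed light into electron flow. LHCB proteins form the antenna of photosystem II and LHCA proteins that of photosystem I, while PSA and PSB genes encode subunits of the complexes themselves. The core reaction-centre proteins are encoded in the chloroplast, so the nuclear genes supply the antenna and the peripheral subunits, and they are among the most strongly transcribed genes of green leaf cells. H3K4me3 is a histone mark of transcribed genes, usually concentrated near the start of the gene, and H3K27me3 is the mark that Polycomb proteins set on silenced genes.

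The H3K4me3 peaks of the photosystem genes were long and covered nearly the whole gene. Their median length was 1890 bp, against 990 bp at 15998 other protein-coding genes with a peak by the same rule. The median share of the gene body under the peak was 100%, against 33.8% at the other genes. In 34 of 42 genes at least 90% of the gene body lay under the peak, and in 27 the whole of it, against 5.10% and 2.78% of the other genes. Photosystem genes are short, with gene bodies of 720 to 1931 bp, so the comparison was repeated with 4333 other genes of that length range. These had a median peak of 980 bp that covered 54.9% of the gene. Set against such genes in the same class of signal (10 equal classes of the mean total signal of both pools), 40 of 42 photosystem genes had a longer peak than the class median, by a median of 708 bp. Only LHCB4.3 and LHCB7 had less than 50% of their body covered, with 49.0% and 45.5%. Peaks longer than the 990 bp of other genes were not particular to the photosystem genes. In further lists of photosynthesis genes, described below, the median length was 1750 bp for carbon fixation and 1670 bp for regulators. It was 1490 bp for chlorophyll synthesis and 1300 bp for electron transport, ATP synthase and photoprotection.

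**Figure D1:**
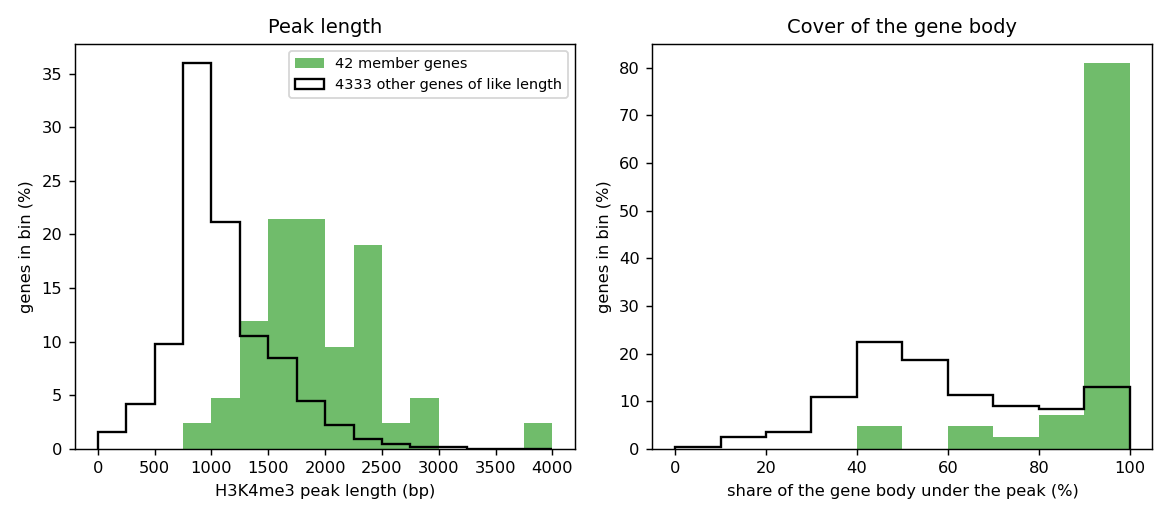
Length of the H3K4me3 peak in bp (left) and share of the gene body under it in % (right), as the percentage of genes in each bin, for the 42 photosystem genes (filled) and 4333 other protein-coding genes with a gene body of 720 to 1931 bp (outline). The photosystem genes have a median peak of 1890 bp and most lie in the bin of 90% cover or more, where the other genes have a median peak of 980 bp and a median cover of 54.9%.

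The length of a peak means that its signal is not always that of 1 gene. In 27 of 42 cases the peak also held at least 150 bp of another protein-coding gene. The same share was not counted for other genes, so this is not a trait shown to be particular to the photosystem genes. The extreme was LHCB6, whose product, CP24, is a minor antenna protein of photosystem II. Its peak on chromosome 1 (5446110 to 5449880, TAIR10) was 3770 bp long, the longest of all 15992 nuclear H3K4me3 peaks. It held all 1419 bp of LHCB6 and 1821 bp of AT1G15830, 536 bp of AT1G15825 and 454 bp of AT1G15810. The peak of PSAH2, of 2830 bp, likewise held 956 bp of ROPGEF11 and 1145 bp of AT1G52220 beside the 871 bp of PSAH2. Each value given for a gene below is that of its whole peak.

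Signal at these genes was high in both pools. The total signal lay between 6819 and 50147 in the treat pool, with a median of 32977, and between 9604 and 47606 in the control pool, with a median of 32034 (a deposited scale without a stated unit). Of the 42 peaks 17, or 40.5%, were in the highest of the 10 classes of mean signal, against 11.0% of other genes with a peak. PSA genes lay in the 2 highest classes in 10 of 12 cases, and LHCB genes in 6 of 15.

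**Figure D2:**
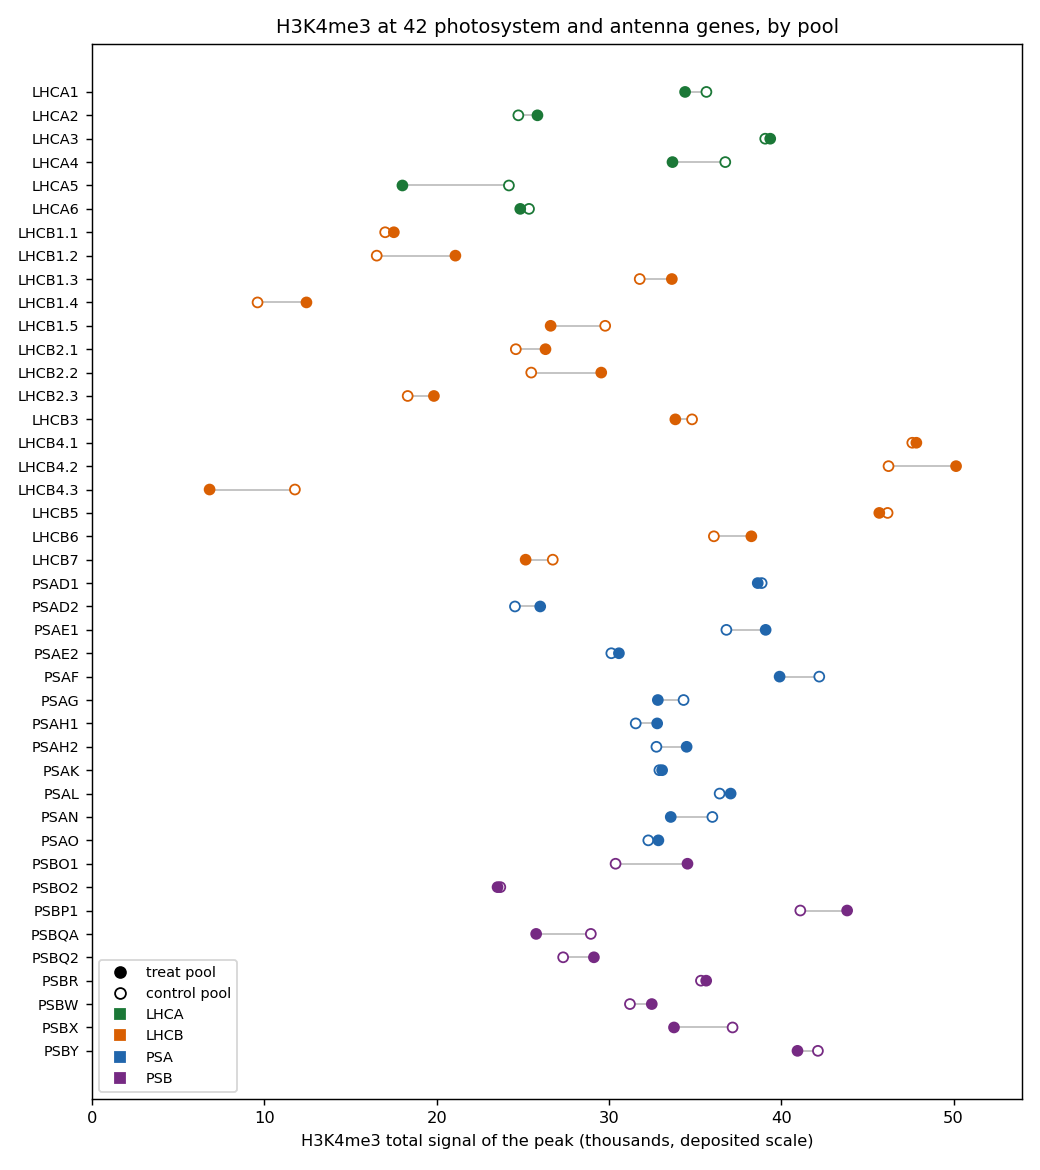
Total H3K4me3 signal of the peak of each of the 42 genes, on the deposited scale divided by 1000, in the treat pool (filled) and the control pool (open), 1 value per pool and no error bars because replicates were pooled. Most pairs of circles lie close together, with the filled circle to the right in 25 genes, and LHCA5 and LHCB4.3 show the widest gaps.

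Between the pools the mark at most photosystem genes was nearly equal. The total signals of 38 of 42 genes differed by less than 1.2-fold, as did those of 77.2% of all nuclear peaks, and 33 differed by less than 1.1-fold. The log2 ratio of total signal, treat pool over control pool, had a median of 0.017, or 1.01-fold, with 25 genes above 0 and 17 below. Over all 15992 nuclear H3K4me3 peaks the median was -0.08, and 31.3% lay above 0. For peak height the median of the 42 genes was -0.012, with 20 above 0, beside -0.06 over all peaks.

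A peak was called different when the deposited FDR for total signal was under 0.05 and the pools differed at least 1.5-fold. Of the 42 photosystem genes 1 was called, LHCB4.3. Of the other protein-coding genes that had a peak, 3.54% were called, 2.35% as lower and 1.19% as higher in the treat pool. Of all nuclear peaks 5.97% were called, 3.52% as lower and 2.44% as higher. A count of 1 in 42 is near that background. How the FDR was computed is not given in the sources used here.

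LHCB4.3 encodes a form of the minor antenna protein CP29 that is far less expressed than its paralogs under ordinary light. Its peak on chromosome 2 (16745760 to 16746640) had a total signal of 6819 in the treat pool and 11772 in the control pool, so it was 1.73-fold lower in the treat pool, and the authors' deposited table gives it an FDR of 0.0414. Peak height was 978 in the treat pool and 1859 in the control pool, where the authors' deposited table gives an FDR of 0.0331. The called width was 650 bp in the treat pool and 880 bp in the control pool. With a mean signal of 9295, this was the weakest and, at 880 bp, the shortest of the 42 peaks. Of the 1599 peaks in its class of signal, 11.6% were called. The call was lost at 2-fold, at an FDR under 0.001 and when at least 50% of the gene had to lie under the peak.

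The other CP29 genes stood at the opposite end of the range. LHCB4.2 had 50147 in the treat pool and 46227 in the control pool, and LHCB4.1 had 47843 in the treat pool and 47606 in the control pool. LHCB5, which encodes CP26, had 45691 in the treat pool and 46173 in the control pool. These were the strongest LHCB peaks, and they differed between pools by 1.08-fold or less. LHCB6 had 38265 in the treat pool and 36090 in the control pool, and LHCB7, a weakly expressed relative, 25162 in the treat pool and 26738 in the control pool.

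The LHCB1 and LHCB2 genes encode the bulk of the trimeric antenna LHCII, the most abundant membrane protein of the chloroplast. In 7 of these 8 genes both total signal and height were above 0 on the log2 scale of treat over control, and LHCB1.5 was the exception. Their median log2 ratio was 0.11 for total signal and 0.14 for height, against -0.08 and -0.06 over all nuclear peaks. None was called. Copies within each of these families are similar in sequence, so reads may have been shared between them. Their sequences were not compared, and how such reads were placed is not given in the sources used here.

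LHCB1.1, LHCB1.2 and LHCB1.3 (AT1G29920, AT1G29910 and AT1G29930) lie next to each other on chromosome 1, under 3 separate peaks (10474300 to 10476080, 10471870 to 10473440, and 10477820 to 10479400). LHCB1.2 had 21087 in the treat pool and 16520 in the control pool, a log2 ratio of 0.35, and its FDR was 0.104 in the authors' deposited table. LHCB1.1 had 17514 in the treat pool and 17010 in the control pool. LHCB1.3 had 33650 in the treat pool and 31785 in the control pool, so it carried the strongest peak of the cluster in both pools.

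LHCB1.4 and LHCB1.5 (AT2G34430 and AT2G34420) are neighbours on chromosome 2 and went different ways. LHCB1.4 had 12442 in the treat pool and 9604 in the control pool, a log2 ratio of 0.37, the highest of the 42 genes. Its FDR was 0.16 in the authors' deposited table. LHCB1.5 had 26614 in the treat pool and 29781 in the control pool. A further peak at LHCB1.4 (chromosome 2, 14524770 to 14524830) overlapped the gene by only 60 bp, under the 150 bp limit, and so was not used. It had 6933 in the treat pool and 994 in the control pool, and the authors' deposited table gives it an FDR of 0.00627. It lay in the lowest class of signal, where 42.4% of all nuclear peaks were called.

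Of the LHCB2 genes, LHCB2.2 had 29552 in the treat pool and 25489 in the control pool, a log2 ratio of 0.21. LHCB2.1 had 26316 in the treat pool and 24594 in the control pool, and LHCB2.3 had 19840 in the treat pool and 18317 in the control pool. All 3 log2 ratios were above 0, between 0.098 and 0.21. LHCB2.3 also touched a second short peak, by 99 bp, that fell outside the limit. LHCB3, which encodes the third type of LHCII subunit, had 33853 in the treat pool and 34824 in the control pool.

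Of the LHCA genes, LHCA1 to LHCA4 encode the main antenna belt of photosystem I. LHCA3 had 39360 in the treat pool and 39070 in the control pool, and LHCA1 34419 in the treat pool and 35656 in the control pool. LHCA4 had 33687 in the treat pool and 36752 in the control pool, and LHCA2 25850 in the treat pool and 24740 in the control pool. LHCA5 and LHCA6, minor proteins that link photosystem I to the NDH complex of cyclic electron flow, differed from each other. LHCA5 had 18012 in the treat pool and 24193 in the control pool, a log2 ratio of -0.43, the next lowest after LHCB4.3. Its FDR was 0.0612 in the authors' deposited table, so it was not called. LHCA6 had 24851 in the treat pool and 25360 in the control pool. Relative to all peaks the family as a whole showed no clear side. Its median log2 ratio was -0.04 for total signal and -0.08 for height, and it became 0.037 and -0.02 once the median of all nuclear peaks was set to 0.

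The 12 PSA genes were the most even family, with log2 ratios from -0.10 to 0.087. Of their peaks 10 lay in the 2 highest classes of signal, where the log2 ratios of all nuclear peaks spread least. PSAD and PSAE proteins form the stromal ridge where ferredoxin docks. PSAE1 had 39094 in the treat pool and 36816 in the control pool, and PSAE2 30578 in the treat pool and 30137 in the control pool. PSAD1 had 38635 in the treat pool and 38863 in the control pool, and PSAD2, with 26010 in the treat pool and 24544 in the control pool, had the lowest mean signal of the family. PSAF, the docking site of plastocyanin, had the strongest PSA peak, with 39904 in the treat pool and 42208 in the control pool. The 8 PSA genes with a log2 ratio above 0 also included PSAH1, PSAH2 and PSAL, whose products form the docking side for mobile LHCII, and PSAK and PSAO, small membrane subunits. The PSAH2 peak had 34508 in the treat pool and 32755 in the control pool, and PSAH1 32798 in the treat pool and 31553 in the control pool. PSAL had 37063 in the treat pool and 36424 in the control pool. PSAK, with 33085 in the treat pool and 32927 in the control pool, and PSAO, with 32870 in the treat pool and 32283 in the control pool, were nearly equal. PSAG, a subunit that anchors the antenna belt, had 32836 in the treat pool and 34331 in the control pool. PSAN, a subunit on the lumen side, had the lowest PSA ratio, with 33586 in the treat pool and 36003 in the control pool. The family median was 0.023 for total signal and -0.06 for height, so its sign depended on the measure.

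Of the 9 PSB genes, 5 encode the extrinsic proteins of the oxygen-evolving complex, which stabilise the manganese cluster that splits water. PSBO1, the major form of its manganese-stabilising protein, had 34558 in the treat pool and 30384 in the control pool, a log2 ratio of 0.19 that was the highest of the family. Its width was 1920 bp in the treat pool and 1620 bp in the control pool. PSBO2, the minor form, had 23533 in the treat pool and 23693 in the control pool. PSBP1 had 43824 in the treat pool and 41107 in the control pool. The PSBQ genes lay on different sides, with PSBQ2 at 29126 in the treat pool and 27341 in the control pool, and PSBQA at 25774 in the treat pool and 28948 in the control pool. The small subunit genes ran from PSBX, with 33775 in the treat pool and 37175 in the control pool, to PSBW, with 32485 in the treat pool and 31218 in the control pool. PSBR had 35643 in the treat pool and 35340 in the control pool, and PSBY 40942 in the treat pool and 42129 in the control pool, so both lay between them in ratio. The family median was 0.012 for total signal and -0.03 for height.

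The photosystem genes were next compared with other H3K4me3 peaks of similar mean signal, since weak peaks varied far more between the pools than strong ones. In the lowest class of signal the quartiles of the log2 ratio spanned 1.57 and in the highest 0.12. Each gene was set against the other peaks of its own class, between 1582 and 1598 peaks. The log2 ratio was above the class median in 33 of 42 genes and below it in 9. It was above the upper quartile of the class in 24, between the quartiles in 13 and below the lower quartile in 5, which were LHCB4.3, LHCA5, LHCB1.5, PSBQA and PSBX. The median difference from the class median was 0.087, which is small beside the 1.5-fold limit of a call. By family it was 0.15 for LHCB, 0.096 for PSA, 0.080 for PSB and 0.026 for LHCA, and no difference between families was tested. With peak height the median difference was 0.050, and 26 of 42 genes were above their class. The genes were chosen with a high H3K4me3 median for a photosynthesis list in these data already known. Their position above other peaks thus has no independent support here.

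**Figure D3:**
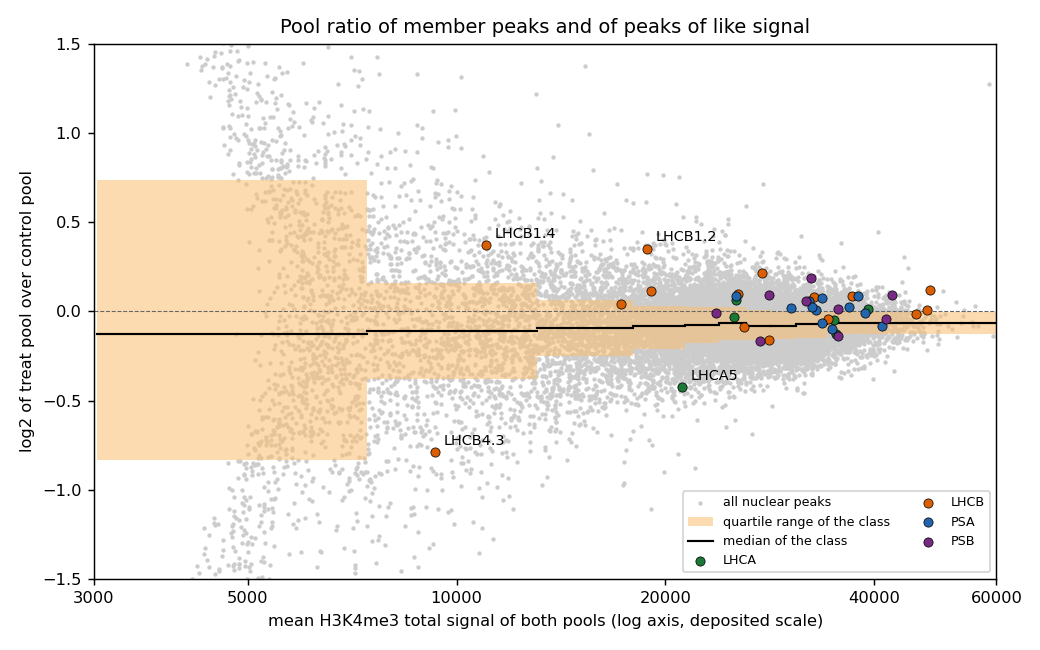
Log2 of treat over control total H3K4me3 signal against the mean total signal of both pools (log axis, deposited scale) for nuclear peaks with signal in both pools (grey) and the 42 genes by family (coloured), with the median (black line) and quartile range (orange) of 10 equal classes of mean signal. The vertical axis stops at -1.5 and 1.5 and the horizontal axis at 3000 and 60000, so more extreme peaks are not drawn. Of the 42 genes 24 lie above the orange band and 5 below it.

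Other genes with long peaks, or with most of the body under the peak, were set beside the photosystem genes, with no test. Those with a peak at least as long as the lower quartile of the photosystem genes numbered 2310. Their median log2 ratio was -0.07, and 24.2% were above 0. Other genes with at least 90% of the body under the peak, 816 in number, had a median log2 ratio of -0.07, and 30.9% were above 0. Narrowed to 207 genes as short as the photosystem genes, covered to at least 90% and in the 2 highest classes of signal, the median was again -0.07 and 25.1% were above 0. The 25 photosystem genes in those classes had a median of 0.011 and 60.0% were above 0. For height the contrast was smaller. The 25 photosystem genes had a median of -0.018, with 11, or 44.0%, above 0. The 207 other genes had a median height ratio of -0.065, with 33.3% above 0. The 15 photosystem genes whose peak held no other gene had a median of 0.025, and 13 of them were above their class median. The width of the peaks themselves hardly differed. It was larger in the treat pool in 22 genes, larger in the control pool in 18 and equal in 2, with medians of 1815 bp in the treat pool and 1785 bp in the control pool.

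H3K27me3 was not found at the photosystem genes. No deposited H3K27me3 peak overlapped any of the 42 gene bodies even by 1 bp, or came within 500 bp, whereas 24.7% of other protein-coding genes had such a peak over at least 150 bp. Among other genes with an H3K4me3 peak the share was 5.75%, and among those in the 2 highest classes of H3K4me3 signal 1.01%, so the absence is common to strongly H3K4me3-marked genes. The median distance to the nearest H3K27me3 peak was 8724 bp. The closest cases were LHCA6 at 548 bp and LHCB5 at 551 bp. The peak beside LHCB5 (chromosome 4, 6410400 to 6413950) was a domain of 3550 bp with 47046 in the treat pool and 56061 in the control pool, and the H3K4me3 peak of LHCB5 ended just short of it, at 6410240. The absence of a peak says that none was deposited there, not that the mark was absent from every cell.

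Other photosynthesis genes had H3K4me3 peaks as a rule as well. Of 53 genes in 4 further lists, 52 had an H3K4me3 peak and 0 were called, against the 3.54% of other genes. The 15 chlorophyll synthesis genes with a peak had a median log2 ratio of -0.02 for total signal, with 4 above 0, and of -0.0015 for height, with 7 above 0. They ran from GSA1, which makes the precursor 5-aminolevulinic acid, with 30503 in the treat pool and 34394 in the control pool, to PCB2, a divinyl reductase, with 29043 in the treat pool and 27359 in the control pool. PORA, the protochlorophyllide oxidoreductase of dark-grown seedlings, had no peak of either mark.

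The 13 carbon fixation genes had a median of -0.07 for total signal, with 6 above 0, and of 0.012 for height, with 7 above 0, so the sign of their median depended on the measure. SBPASE, an enzyme of the Calvin cycle, had 24993 in the treat pool and 29203 in the control pool, and PRK, which regenerates the acceptor of CO2, had 36069 in the treat pool and 32833 in the control pool. The 15 genes of electron transport, ATP synthase and photoprotection had a median of -0.05 for total signal, with 5 above 0, and of -0.04 for height, with 6 above 0. They ran from PETC, the Rieske protein, with 25316 in the treat pool and 31017 in the control pool, to PGRL1A, a protein of cyclic electron flow, with 33849 in the treat pool and 29737 in the control pool. The 9 regulators had a median of -0.08 for total signal, with 3 above 0, and of -0.06 for height, with 4 above 0. PIF3, a phytochrome-interacting factor, had 21105 in the treat pool and 24350 in the control pool, and PIF1 had 24846 in the treat pool and 21871 in the control pool. For total signal the medians of all 4 lists were below the 0.017 of the photosystem genes. For height those of chlorophyll synthesis and carbon fixation were above the -0.012 of the photosystem genes. No difference between the lists was tested.

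**Figure D4:**
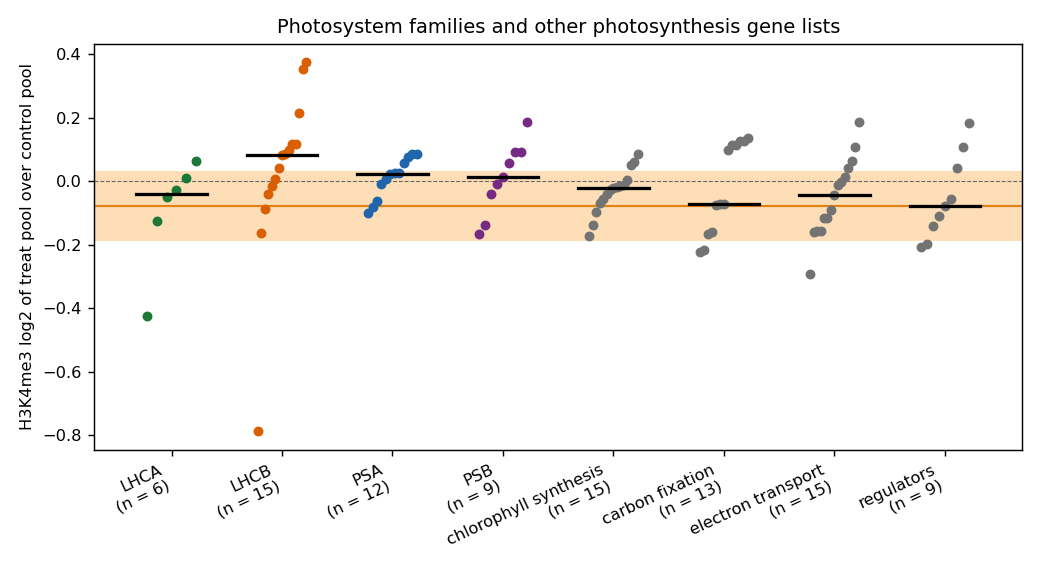
H3K4me3 log2 of treat over control total signal for each gene (points) and the median (black bar) of the 4 photosystem families and 4 other photosynthesis lists, with the median (orange line) and quartile range (orange band) of all 15992 nuclear peaks. The medians of LHCB, PSA and PSB lie above 0 and those of LHCA and of the 4 other lists between -0.08 and -0.02 for total signal, and for height those of PSA, PSB and carbon fixation change sign.

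As at the photosystem genes, no gene of the chlorophyll synthesis and electron transport lists carried an H3K27me3 peak. Of the 53 genes in the lists together 4 carried one, against 24.7% of other protein-coding genes and 5.75% of other genes with an H3K4me3 peak. A count of 4 in 53 is near the second share. These 4 genes were the transcription factor genes GLK1, GNC and CGA1, which activate nuclear genes for chloroplast proteins, and RBCS2B, a small subunit of Rubisco. GNC had an H3K27me3 signal of 29765 in the treat pool and 31804 in the control pool, and CGA1 26283 in the treat pool and 33972 in the control pool. GLK1 had 25283 in the treat pool and 22625 in the control pool. RBCS2B, one of a row of similar RBCS genes on chromosome 5, had a weak peak with 6376 in the treat pool and 10622 in the control pool. None of the 4 was called, against 8.39% of all nuclear H3K27me3 peaks, 3.91% as lower and 4.47% as higher. GLK2, the paralog of GLK1, had only H3K4me3, with 33209 in the treat pool and 34513 in the control pool.

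Marker genes of shoot apex, root and seed were also read. Of 7 shoot apex genes 3 had an H3K4me3 peak (STM, KNAT1 and CLV1), those of STM and KNAT1 being short peaks of 310 and 250 bp, and 6 had an H3K27me3 peak. WUS and CLV3, which mark small groups of stem cell niche cells, had H3K27me3 peaks only. Of 4 root genes 1 had an H3K4me3 peak and 3 an H3K27me3 peak, and the 3 seed genes had H3K27me3 peaks only. Most apex genes and most root genes thus had an H3K27me3 peak, so these markers did not tell shoot apex from root. In such bulk tissue a difference in the share of green cells and a difference in the mark per cell cannot be told apart.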

How the data were processed

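ChIP-seq libraries were made from 18 samples. Per the submitters' processing notes the tool and build named were Bowtie and TAIR10, while peak caller and normalization are not given in the sources used here. For each mark the authors deposited 1 table with, per peak and pool, total signal and height (scores on an unstated scale), widths in bp, log2 ratios of treat over control, and an FDR of p-value type. The H3 samples were not analysed here.

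The tables held 16032 H3K4me3 and 10228 H3K27me3 peaks, of which 40 and 34 organelle peaks were left out. Log2 ratios were recomputed from total signals and equalled the deposited ones at all 42 genes (largest difference 6.96e-12). Coordinates are those of the tables. Genes came from a TAIR10.1 table, which gives no strand, so distances to gene starts were not computed. To check that both match, genes were moved by 20000 bp, after which 41.1% of the other protein-coding genes had an H3K4me3 peak, against 58.4% in place.

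Classes were 10 equal ranks of mean total signal. With pooled replicates no test across samples was possible, and calls rest on the deposited FDR. All 42 genes could be named, and of other lists the highest, the lowest and any called gene, plus the 4 genes with an H3K27me3 peak and GLK2, PORA and the markers, chosen after their values were seen. Genes and lists were chosen with earlier results of these data known, including a high H3K4me3 median for a photosynthesis list, so that position has no independent support here. Python 3.11.15, pandas 2.3.3 and scipy 1.17.1 were used.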

Additional observations from a re-analysis of the deposited data

How the results depend on the processing

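No paired analysis was possible because replicates had been pooled in the tables, and none could be left out. The median H3K4me3 log2 ratio of the 42 genes was -0.012 with peak height and 0.094 once centred on all nuclear peaks, against 0.017 as reported; the cause of the first was not tested and the second shifts every gene alike. This median stayed above 0 in 6 further alternatives, 1 of them chosen after seeing the data. They changed the links between genes and peaks, filtered the peaks, or left out the LHCB1 genes, LHCB2.1 and LHCB2.2. Counting each peak once and asking for 1 bp of overlap could not change the median, since both use the same 42 peaks. The median difference from peaks of like signal stayed between 0.050 and 0.11 in 6 alternatives. The single called gene was lost at 2-fold, at an FDR under 0.001 and when 50% of the gene body had to be covered, each leaving 0, the last because LHCB4.3 is then left out. The count of genes with an H3K27me3 peak was 0 in each of 3 alternatives. The alternative of 50% of the gene body could give no other count, since it is stricter than the 150 bp limit. The unknown scale and depth of the signal limit what small ratios can show.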
